A study of Homo sapiens with 8 samples.

Results

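The 10 genes described here encode steps of the route from glucose uptake to lactate and a kinase that blocks pyruvate dehydrogenase. They are SLC2A1, HK2, GPI, PFKP, ALDOA, PGK1, ENO1, PKM, LDHA and PDK1. They were chosen by symbol, and all 10 were found among the 62649 genes of the deposited table and among the 19122 genes tested. RNA was sequenced from spheroids of 2 cell lines of human pancreatic cancer, the ascites-derived AsPC-1 and PANC-1 from a primary ductal tumour, and the labels give the genotype of both as WT. In each line the 4 groups were vehicle, 10 µM roseoflavin, 1 nM trametinib and both compounds together, called the combination, each applied for 24 h after 3 days of culture in methylcellulose. Roseoflavin is an analogue of riboflavin, the vitamin from which flavin cofactors are made, and trametinib inhibits the kinases MEK1 and MEK2 of the RAS pathway. Each group is 1 library, so no group has a replicate.

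Cells turn glucose into pyruvate by glycolysis and may then reduce pyruvate to lactate instead of oxidising it. When oxygen is low, the transcription factor HIF-1 is no longer degraded and binds a short DNA element near many of these genes, which raises their transcription, and pancreatic tumours, with their poor blood supply, are known for strong hypoxia and glycolysis. Oxygen, HIF-1 protein and lactate were not measured in these samples.

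The values are TPM, a share of all transcripts that is scaled per gene length and sums to 1000000 in each library, so sequencing depth is unknown. Mitochondrially encoded transcripts took 41.2% to 44.1% of TPM in AsPC-1 and 22.8% to 25.6% in PANC-1, and the share in AsPC-1 was highest after roseoflavin alone, at 44.1% against 41.2% with vehicle. Changes were therefore also computed after leaving these transcripts out and rescaling. The summed TPM of 4 epithelial markers was 5036 to 5902 in AsPC-1 against 966 to 1054 in PANC-1. In PANC-1 most of it was KRT19, at 943 to 1032 TPM, and CEACAM6 was at most 0.097 TPM. The sum of 3 mesenchymal markers was 668 to 825 and 3155 to 3415, with CDH2 at 0 in AsPC-1. Of the markers of other cell types, none of 3 leukocyte genes in AsPC-1 and 1 of 3 in PANC-1 reached 1 TPM, 1 of 4 fibroblast genes did in each line, and no endothelial gene did. The summed leukocyte level was at most 0.166 TPM in AsPC-1 against 4.35 TPM in PANC-1, and LST1 was at 0 in AsPC-1. The summed fibroblast level was 103 to 146 and 98.9 to 107 TPM, but it came from a different gene in each line. LUM was 103 to 146 TPM in AsPC-1 and at most 0.039 TPM in PANC-1. COL1A1 was at most 0.121 TPM in AsPC-1 and 98.9 to 107 TPM in PANC-1, where DCN was at 0. In bulk RNA, fewer cells of a kind and less RNA per cell cannot be told apart.

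The promoters of the 3 genes whose roseoflavin response differed most between the lines, HK2, GPI and SLC2A1, and of the gene whose response differed least, PKM, are printed to show the core of the hypoxia response element, which is ACGTG or GCGTG. Each is the RefSeq window on GRCh38.p14 from 250 bases before to 50 after a transcript start, written 5′ to 3′ on the gene's strand. Capitals mark either core on either strand (CACGT and CACGC on the reverse). HK2 has an entry for each of 2 starts, at chr2:74833877-74834176 and chr2:74834920-74835219 on the plus strand. GPI lies at chr19:34364742-34365041 on the plus strand, SLC2A1 at chr1:42958819-42959118 on the minus strand and PKM at chr15:72231141-72231440 on the minus strand.
HK2 first start: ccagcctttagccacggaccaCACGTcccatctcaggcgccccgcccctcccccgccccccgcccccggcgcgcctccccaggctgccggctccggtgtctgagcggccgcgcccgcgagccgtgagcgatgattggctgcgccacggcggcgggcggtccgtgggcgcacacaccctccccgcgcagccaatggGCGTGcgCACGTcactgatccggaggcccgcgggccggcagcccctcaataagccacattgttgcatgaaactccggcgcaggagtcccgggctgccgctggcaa
HK2 second start: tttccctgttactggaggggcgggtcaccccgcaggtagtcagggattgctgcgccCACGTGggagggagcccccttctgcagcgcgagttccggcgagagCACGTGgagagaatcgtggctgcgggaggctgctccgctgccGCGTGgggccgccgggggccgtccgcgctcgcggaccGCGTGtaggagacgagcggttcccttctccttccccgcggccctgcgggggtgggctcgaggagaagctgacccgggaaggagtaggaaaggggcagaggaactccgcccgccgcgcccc
GPI: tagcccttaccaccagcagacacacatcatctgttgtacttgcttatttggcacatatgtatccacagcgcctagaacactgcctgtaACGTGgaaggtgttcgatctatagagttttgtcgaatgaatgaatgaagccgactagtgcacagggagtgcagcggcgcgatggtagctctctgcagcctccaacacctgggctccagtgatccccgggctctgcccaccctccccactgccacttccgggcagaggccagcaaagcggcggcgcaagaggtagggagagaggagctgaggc
SLC2A1: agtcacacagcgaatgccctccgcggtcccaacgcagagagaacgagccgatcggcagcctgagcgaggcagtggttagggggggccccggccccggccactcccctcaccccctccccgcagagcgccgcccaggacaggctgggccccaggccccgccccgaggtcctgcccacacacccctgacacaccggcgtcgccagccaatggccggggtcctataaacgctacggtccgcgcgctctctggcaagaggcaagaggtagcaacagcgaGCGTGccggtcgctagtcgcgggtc
PKM: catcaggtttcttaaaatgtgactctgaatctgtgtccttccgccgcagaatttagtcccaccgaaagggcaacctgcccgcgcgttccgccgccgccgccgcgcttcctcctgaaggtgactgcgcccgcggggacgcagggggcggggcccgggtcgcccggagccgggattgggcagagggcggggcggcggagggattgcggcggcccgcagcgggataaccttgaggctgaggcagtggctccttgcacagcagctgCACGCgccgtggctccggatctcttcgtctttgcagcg
The second HK2 window holds 2 copies of the palindrome CACGTG, each of which counts as ACGTG on both strands. GPI has a single ACGTG, and SLC2A1 and PKM have no ACGTG and 1 GCGTG each.

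All 10 genes matched the RefSeq promoter table, with 18 entries. ACGTG occurred in 10 of these 18 entries, belonging to 7 genes (HK2, GPI, PFKP, ALDOA, PGK1, LDHA and PDK1), against 21.4% of all 35116 promoter windows of the same length. GCGTG occurred in 9 entries, against 36.5% of all windows, and either core in 15 of the 18 entries, against 48.4%. A match is a description of the letters and not of binding.

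The levels of most of these genes differed between the lines. The order in AsPC-1 with vehicle was ALDOA, LDHA, ENO1, PKM, PGK1, SLC2A1, PFKP, GPI, HK2 and PDK1, and in PANC-1 it was ALDOA, ENO1, LDHA, PKM, PGK1, GPI, PFKP, SLC2A1, HK2 and PDK1. Over the 4 treatments of AsPC-1 the ranges of ALDOA and LDHA, of PKM and PGK1 and of SLC2A1 and PFKP overlapped, whereas in PANC-1 only those of ALDOA and ENO1 did among neighbours in that order. In a limma fit over all genes, 9 of the 10 genes were higher in PANC-1, where 62.0% of all genes tested were higher, and SLC2A1 was lower, as were 21.3% of all genes. The members' median difference was 0.96 on the log2(TPM + 1) scale and that of all genes 0.55. Without the mitochondrial transcripts the medians were 0.57 and 0.25, and after quantile normalization 0.64 and 0.04.

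GPI and ENO1 differed most between the lines. GPI, the isomerase of the second step, was 2.69 higher in PANC-1 (SE 0.204, limma adjusted p = 6.53e-05) and ENO1, the main enolase, 1.96 higher (SE 0.0458, limma adjusted p = 7.70e-07). SLC2A1, the glucose transporter GLUT1, was the exception, with -0.87 (SE 0.172, limma adjusted p = 0.00437). It ranged from 104 to 142 TPM over the AsPC-1 libraries, and the PANC-1 libraries, at 55.02 to 83.6 TPM, all lay below. HK2 had the largest adjusted p of the 10, with a difference of 0.83 (SE 0.245, limma adjusted p = 0.0219): its call was lost without the mitochondrial transcripts, after quantile normalization, with no filter on low values, and on leaving out the roseoflavin or the combination library of either line. The call on SLC2A1 was also lost with no filter, and that on PFKP after quantile normalization.

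**Figure D1:**
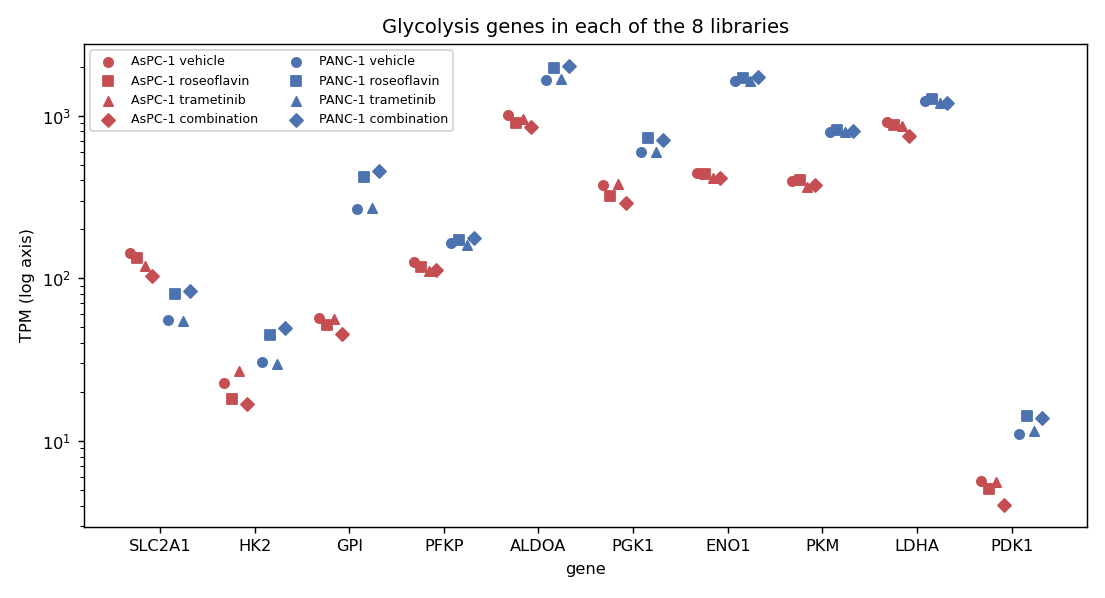
TPM (log axis) of the 10 genes, 1 point per library, with the lines in colour and the treatments as symbols. SLC2A1 alone lies lower in PANC-1 than in AsPC-1, and in PANC-1 the roseoflavin and combination libraries of GPI lie at 419 and 459 TPM, above 267 and 272 TPM in the other libraries.

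Roseoflavin went with differences of opposite sign in the 2 lines. In AsPC-1, 1 of the 10 genes had a positive fitted effect, against 38.9% of all genes, and the other 9 had a negative one. The members' median there was -0.15 against -0.03 over all genes. In PANC-1 all 10 had a positive effect, against 48.9% of all genes, with a median of 0.26 against 0.00 for all genes. The median of the difference between the lines was 0.48 against 0.04. In the fit over all 19122 genes, no gene passed a limma adjusted p of 0.05 in AsPC-1, in PANC-1 or for the difference, a background of 0.0% in every direction. At an unadjusted limma p under 0.05, 6 of the 10 genes stood in each of these comparisons, with 2163, 2074 and 2227 genes in all. After quantile normalization 3, 5 and 6 of the 10 did, with 2131, 2170 and 2275 genes in all. After rescaling without mitochondrial transcripts 3, 5 and 6 did, with 2239, 2224 and 2334 genes in all.

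Among the 7907 genes with a RefSeq mRNA and a mean TPM of 10 or more, which leaves 9 of the 10 genes because PDK1 averages 8.88 TPM, limma called several. PGK1 and HK2 fell in AsPC-1 (2 of 9, against 1.75% of genes lower) and GPI, SLC2A1 and HK2 rose in PANC-1 (3 of 9, against 1.34% higher). The difference between lines passed for PGK1, GPI, SLC2A1, ALDOA and HK2 (5 of 9, against 1.85%). The calls for the difference were the same 5 after rescaling without mitochondrial transcripts and after quantile normalization, whereas none passed in AsPC-1 on either scale and 4 passed in PANC-1 on each, ALDOA being added. The share of all genes called higher was 0.974% in PANC-1 and 1.11% for the difference after rescaling, and 1.63% and 1.83% after quantile normalization. They rest on few residual degrees of freedom. For the difference, leaving out the vehicle or roseoflavin library of AsPC-1 left 4 calls, its trametinib or combination library 1 (GPI), the vehicle or roseoflavin library of PANC-1 2 (GPI and HK2), and its trametinib or combination library 0. In AsPC-1 every omission of a library left 0 calls. In PANC-1, 4 genes were called without any 1 of the AsPC-1 libraries, 1 (GPI) without the vehicle or roseoflavin library of PANC-1, and 0 without its trametinib or combination library.

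SLC2A1 carries glucose across the plasma membrane. In PANC-1 it was 55.1 TPM with vehicle and 55.02 with trametinib, against 80.0 with roseoflavin and 83.6 with the combination. Both libraries with roseoflavin were thus well above both without it. In AsPC-1 it was 142, 134, 118 and 104 TPM with vehicle, roseoflavin, trametinib and the combination, so the roseoflavin groups overlap. The roseoflavin effect was -0.14 in AsPC-1 (SE 0.0463, limma adjusted p = 0.429) and 0.56 in PANC-1 (SE 0.0463, limma adjusted p = 0.221). The difference was 0.70 (SE 0.0655, limma adjusted p = 0.308, and 0.00259 among the RefSeq mRNAs).

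HK2 is the inducible hexokinase, which traps glucose in the cell as its phosphate. In AsPC-1 it was 22.7 TPM with vehicle, 18.1 with roseoflavin, 26.8 with trametinib and 17.0 with the combination. In PANC-1 it was 30.4, 44.9, 29.9 and 49.7 TPM in the same order. The groups with and without roseoflavin do not overlap in either line, and they lie in opposite directions. Against trametinib alone, the combination differed by -36.8% in AsPC-1 against 65.9% in PANC-1. The difference between lines was the largest of the 10 genes, 1.10 (SE 0.141, limma adjusted p = 0.336, and 0.00244 among the RefSeq mRNAs). HK1, the housekeeping hexokinase, was 15.4 to 17.1 TPM in AsPC-1 against 96.0 to 118 TPM in PANC-1.

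GPI converts the phosphate of glucose to that of fructose. In PANC-1 it was 267 TPM with vehicle and 272 with trametinib, against 419 with roseoflavin and 459 with the combination, the largest PANC-1 effect of the 10 (0.70, SE 0.0580, limma adjusted p = 0.221, and 0.000513 among the RefSeq mRNAs). In AsPC-1 it was 57.0, 52.0, 55.9 and 45.6 TPM with vehicle, roseoflavin, trametinib and the combination, again without overlap and in the other direction (-0.21, SE 0.0580, limma adjusted p = 0.397). A second protein-coding entry, ENSG00000266953 (chr19:34396315-34409364 in GENCODE 29), overlaps the end of GPI (chr19:34359480-34402413) on the same strand. It was listed higher than GPI, at 170, 158, 173 and 138 TPM in AsPC-1 against 777, 1184, 785 and 1259 TPM in PANC-1, with the same split by roseoflavin. How reads were shared between the entries is not stated, so the level of GPI is uncertain.

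PFKP, the platelet form of phosphofructokinase, which makes the committed step of glycolysis, varied little. It was 126, 118, 111 and 113 TPM in AsPC-1 against 164, 172, 159 and 176 TPM in PANC-1 with vehicle, roseoflavin, trametinib and the combination. In PANC-1 the roseoflavin groups do not overlap, but the effect was only 0.11 (SE 0.0473, limma adjusted p = 0.510), and in AsPC-1 it was -0.03 (SE 0.0473), with a sign that turned under quantile normalization and without the vehicle or roseoflavin library of that line. An antisense-type entry, ENSG00000278419, overlaps its end on the same strand and was listed at 210 to 246 TPM in AsPC-1 against 197 to 232 TPM in PANC-1.

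ALDOA, the aldolase that splits the sugar into its 3-carbon parts, was the most abundant of the 10 genes. It was 1003 TPM with vehicle, 899 with roseoflavin, 948 with trametinib and 854 with the combination in AsPC-1, and 1651, 1971, 1685 and 2018 TPM in PANC-1. In each line the groups with and without roseoflavin stood apart, lower with it in AsPC-1 and higher in PANC-1. The matched differences were nearly equal with and without trametinib, -0.16 and -0.15 in AsPC-1 against 0.26 and 0.26 in PANC-1. The difference between lines was 0.41 (SE 0.0496, limma adjusted p = 0.330, and 0.0279 among the RefSeq mRNAs). A protein-coding entry that spans ALDOA, ENSG00000285043, was listed at 981 to 1152 TPM in AsPC-1 against 1896 to 2316 TPM in PANC-1, so how reads were divided bears on this level too.

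PGK1 makes the first ATP of the pathway. It was 372, 322, 381 and 292 TPM in AsPC-1 against 598, 728, 597 and 711 TPM in PANC-1 with vehicle, roseoflavin, trametinib and the combination. Both roseoflavin libraries were below both others in AsPC-1 and above both in PANC-1. The effects were -0.29 (SE 0.0562, limma adjusted p = 0.380) and 0.27 (SE 0.0562, limma adjusted p = 0.390), and their difference was 0.56 (SE 0.0795, limma adjusted p = 0.336, and 0.0103 among the RefSeq mRNAs).

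ENO1, PKM and LDHA, the last steps of the route, showed small differences with roseoflavin. ENO1 was 445, 439.6, 415 and 413 TPM in AsPC-1 against 1628, 1711, 1631 and 1717 TPM in PANC-1, a roseoflavin effect of -0.01 (SE 0.0340) and 0.07 (SE 0.0340). PKM, the pyruvate kinase, was 398, 403, 362 and 372 TPM in AsPC-1 against 793, 818, 790.4 and 807 TPM in PANC-1, with effects of 0.03 and 0.04 (SE 0.0338 each). LDHA, which reduces pyruvate to lactate, was 911, 872, 861 and 748 TPM in AsPC-1 against 1229, 1266, 1201 and 1188 TPM in PANC-1, with effects of -0.13 and 0.01 (SE 0.0518 each). The limma adjusted p of these effects was 0.457 or more in each line. Rescaling without mitochondrial transcripts turned the sign of ENO1 in AsPC-1 and of LDHA in PANC-1, and quantile normalization that of PKM and LDHA in PANC-1.

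PDK1, the kinase that blocks pyruvate dehydrogenase, had the lowest level. It was 5.64, 5.10, 5.62 and 4.05 TPM in AsPC-1 against 11.1, 14.2, 11.5 and 13.9 TPM in PANC-1 with vehicle, roseoflavin, trametinib and the combination. The libraries with and without roseoflavin stood apart in both lines, lower with roseoflavin in AsPC-1 and higher in PANC-1. The difference between lines was 0.55 (SE 0.122, limma adjusted p = 0.357), and the log2(TPM + 1) scale understates changes at this level.

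Counted over the genes, the libraries with roseoflavin lay below those without it in AsPC-1 for 5 of 10 (HK2, GPI, ALDOA, PGK1 and PDK1), where 21.6% of all genes did. In PANC-1 they lay above for 9 of 10, all but LDHA, where 22.9% of all genes did. Both held together for the same 5 genes, where 5.31% of all genes met both conditions. Under quantile normalization the counts were 4, 7 and 4 (against 13.8%, 22.7% and 3.53% of all genes), with ALDOA lost in AsPC-1 and ENO1 and PKM lost in PANC-1. Rescaled without mitochondrial transcripts they were 5, 8 and 5 (against 18.5%, 16.5% and 3.38%), with PKM lost in PANC-1.

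Counting values past a 25% rise in TPM + 1, or the equal fall on the log2 scale, 0 of 10 genes were lower after roseoflavin alone in AsPC-1, against 10.9% of all genes. In the presence of trametinib HK2, PGK1 and PDK1 were (3 of 10, against 7.99%), and between the combination and vehicle SLC2A1, HK2, PGK1 and PDK1 were (4 of 10, against 10.7%). In PANC-1, SLC2A1, HK2, GPI and PDK1 were higher after roseoflavin alone (4 of 10, against 6.41%). SLC2A1, HK2 and GPI were higher in the combination than with trametinib alone (3 of 10, against 7.84%) and than with vehicle (3 of 10, against 7.41%). In AsPC-1 the members' median was -0.11 after roseoflavin alone, against -0.046 over all genes. In the presence of trametinib it was -0.20, against -0.0048 over all genes. After rescaling the members' medians were -0.04 and -0.22. After quantile normalization they were -0.02 and -0.23, and after roseoflavin alone 6 of the 10 genes were lower and 3 higher. In PANC-1 the medians were 0.27 and 0.25, 0.23 and 0.22 after rescaling, and 0.20 and 0.20 after quantile normalization. The interaction of the compounds over both lines was not called for any gene (limma, 0.0% of genes; 536 genes at an unadjusted p under 0.05, none of them a member), and the members' values lay between -0.17 and 0.09. That term averages the lines, and its error holds the difference between their responses. It therefore cannot decide on an interaction within a single line, which was not tested.

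**Figure D2:**
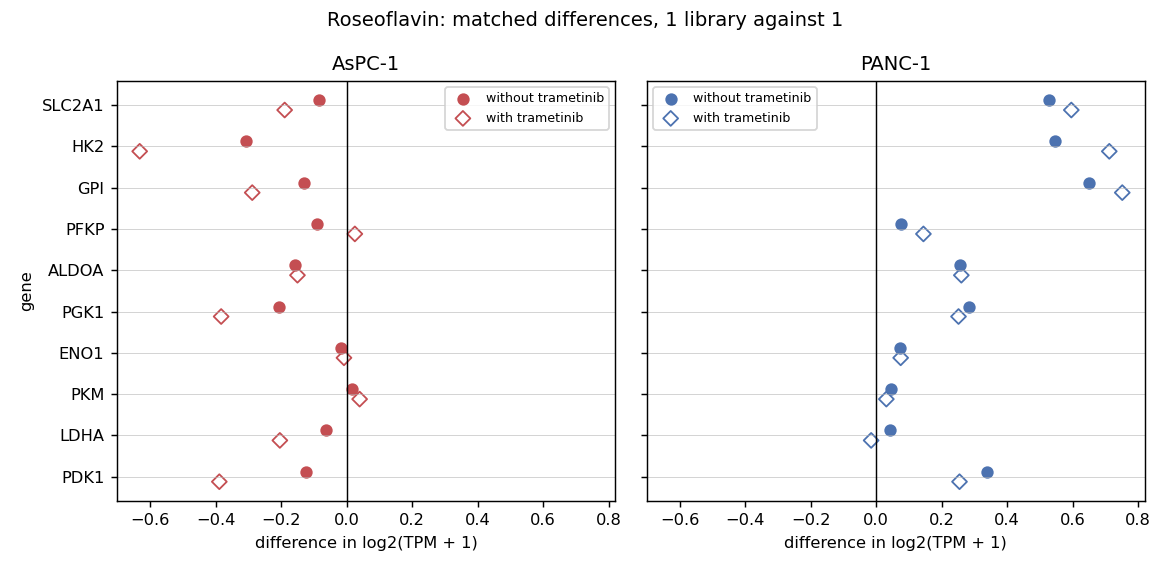
Difference in log2(TPM + 1) between the library with roseoflavin and its match without it, for each gene, in AsPC-1 (left) and PANC-1 (right). Filled circles are roseoflavin minus vehicle and open diamonds combination minus trametinib, 1 library against 1 with no error. HK2 lies at -0.31 and -0.63 in AsPC-1 against at 0.55 and 0.71 in PANC-1.

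Trametinib effects on these genes were close to 0 in PANC-1 and mostly negative in AsPC-1. The pattern that roseoflavin showed in 7 genes (SLC2A1, HK2, GPI, ALDOA, PGK1, ENO1 and PDK1), lower in each matched comparison of AsPC-1 and higher in each of PANC-1, against 11.5% of all genes, appeared for trametinib in GPI, ALDOA and ENO1 (3 of 10, against 6.28%). The fitted effects there lay between -0.06 and 0.08, with a median of 0.0049 against 0.0093 for all genes, and in AsPC-1 between -0.31 and 0.07, with a median of -0.11 against 0.02. No gene passed limma's adjusted threshold for trametinib in either line, for the difference or over both lines (0.0% of genes). At an unadjusted p under 0.05, limma gave 2691 genes and 4 members in AsPC-1 and 919 genes and 0 members in PANC-1. Both trametinib libraries lay below both others in AsPC-1 for SLC2A1, PFKP, ENO1, PKM and LDHA (5 of 10, against 13.3% of genes) and in PANC-1 for LDHA (1 of 10, against 11.6%).

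SLC2A1 had the largest trametinib value. In AsPC-1 its TPM with trametinib differed from vehicle by -16.6%, and the combination from roseoflavin by -22.6%, a fitted effect of -0.31 (SE 0.0463, limma adjusted p = 0.271). Among the RefSeq mRNAs SLC2A1 was called (limma adjusted p = 0.0184, 1 of 9 against 1.04% lower), and after quantile normalization LDHA was called as well (2 of 9, against 1.68%). With a common term for the other compound the call was lost (smallest limma adjusted p of the 9 genes 0.350), and with any 1 library left out no member was called. In PANC-1 the effect was 0.03 (SE 0.0463). Between the combination and vehicle in AsPC-1 all 10 genes were lower, by a median of -0.30, where 9088 of the 19122 genes tested were lower. The lowest values were -0.45 for SLC2A1, -0.40 for HK2 and -0.39 for PDK1. In TPM, without the added 1, PDK1 differed by -28.2%, SLC2A1 by -27.0% and HK2 by -25.2%. Across both lines together the roseoflavin values lay between -0.06 and 0.25 and the trametinib values between -0.14 and 0.07, and none was called by limma (0.0%; 1358 and 938 genes at an unadjusted p under 0.05, none of them a member).

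**Figure D3:**
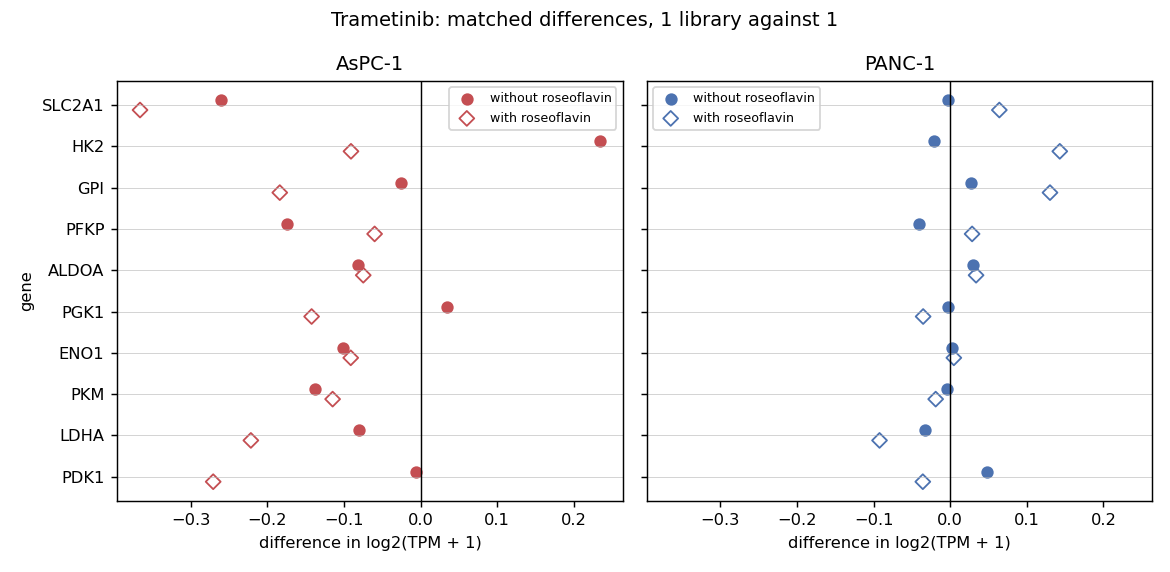
Difference in log2(TPM + 1) between the library with trametinib and its match without it, for each gene, in AsPC-1 (left) and PANC-1 (right). Filled circles are trametinib minus vehicle and open diamonds combination minus roseoflavin, 1 library against 1 with no error. SLC2A1 lies at -0.26 and -0.37 in AsPC-1.

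The other genes of the pathway were read the same way, in lists that share no gene with the 10. Of 28 other glycolysis genes 18 were tested, and their median roseoflavin effect was -0.02 in AsPC-1, 0.09 in PANC-1 and 0.14 for the difference. None passed in the fit of all genes. Among the RefSeq mRNAs, 1.85% of all genes were called higher for the difference. Among the RefSeq mRNAs 5 of 15 passed for the difference, namely ALDOC, GAPDH, ENO2, PFKFB4 and PFKFB3. Leaving out 1 library at a time gave between 1 and 4 calls, with 1 call without the combination library of AsPC-1, for example. ENO2, the neuronal enolase, was 20.2, 11.6, 15.6 and 7.58 TPM in AsPC-1 against 103, 135, 105 and 143 TPM in PANC-1, a difference of 1.27. GAPDH, the dehydrogenase upstream of PGK1, was 2597, 2397, 2485 and 2299 TPM in AsPC-1 against 4854, 6112, 4954 and 6303 TPM in PANC-1, a difference of 0.45. PFKFB3, which makes the activator of phosphofructokinase, was 15.5, 12.1, 15.9 and 10.1 TPM in AsPC-1 against 26.7, 34.8, 27.9 and 37.4 TPM in PANC-1.

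Some partner genes differed widely between the lines. LDHB, the lactate dehydrogenase subunit that favours making pyruvate from lactate, stood at 0 in each of the 4 AsPC-1 libraries, and at 292 to 315 TPM in PANC-1, so LDHA was the only one of the pair with a level in AsPC-1. FBP1, the gluconeogenic phosphatase that opposes phosphofructokinase, was 150 to 182 TPM in AsPC-1 and at most 0.108 TPM in PANC-1. SLC16A3, the lactate exporter MCT4, was 25.9 to 34.1 TPM in AsPC-1 against 204 to 232 TPM in PANC-1.

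Genes of pyruvate entry into the mitochondria, and of pyruvate dehydrogenase and its control, had medians near 0. The median roseoflavin effect of the 13 tested was -0.0049 in AsPC-1 against 0.02 in PANC-1. Among the RefSeq mRNAs 0 of 11 passed for the difference, where 1.85% of all genes were called higher. PDK3, another kinase of pyruvate dehydrogenase, had the smallest p, at 0.860, 0.677, 1.16 and 0.853 TPM in AsPC-1 against 7.61, 9.06, 7.62 and 9.88 TPM in PANC-1. PDK2 was 8.28 to 10.9 TPM in AsPC-1 against 20.6 to 21.3 TPM in PANC-1, and PDP2, a phosphatase that reverses these kinases, 2.51 to 2.69 against 9.43 to 11.4 TPM. PDK4 was 29.3 to 46.7 TPM in AsPC-1, above PDK1 there, and 1.01 to 1.45 TPM in PANC-1. The list of gluconeogenesis genes had medians of -0.06 and 0.09 over 6 tested genes, with PCK2, the mitochondrial carboxykinase, called for the difference (1 of 4 RefSeq mRNAs, 0 with any 1 library left out). PCK1, the cytosolic carboxykinase, was 0.744 to 1.76 TPM in AsPC-1 and listed at 0 in PANC-1, and G6PC3, a glucose phosphatase, was 8.35 to 9.06 against 13.0 to 15.2 TPM.

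The genes that sense oxygen had medians near 0, while the medians of other HIF targets had the same signs as those of the 10 genes. HIF1A itself was 19.2 to 24.1 TPM in AsPC-1 against 53.9 to 56.4 TPM in PANC-1, with effects of -0.07 and 0.02. Among the RefSeq mRNAs, 1.85% of all genes were called higher for the difference between lines. The median of 11 oxygen-sensing genes was -0.03 in AsPC-1 against -0.01 in PANC-1, and EGLN1, a prolyl hydroxylase that marks HIF for degradation, was the 1 of 9 called for the difference, and 0 were with any 1 library left out. ARNT, the partner of HIF1A, was 13.0 to 15.7 TPM in AsPC-1 against 31.7 to 33.2 TPM in PANC-1. EGLN3 departed from the list's median, with effects of -0.94 in AsPC-1 and 0.34 in PANC-1. It was 12.8, 8.23, 15.5 and 5.66 TPM in AsPC-1 with vehicle, roseoflavin, trametinib and the combination, and at most 0.744 TPM in PANC-1. The 18 non-glycolytic hypoxia targets, of which EGLN3 also stands in the oxygen-sensing list, had medians of -0.46 in AsPC-1, 0.36 in PANC-1 and 0.81 for the difference. In both matched comparisons 16 of 18 were lower with roseoflavin in AsPC-1 and 16 of 18 higher in PANC-1, beside 8 and 9 of the 10 glycolysis genes. Of all 19122 genes tested, 11755 were lower in AsPC-1 after roseoflavin alone and 9807 in the presence of trametinib. In PANC-1, 9193 and 9483 were higher, each comparison being counted by itself. Of these targets 10 of 14 RefSeq mRNAs passed for the difference (NDRG1, BNIP3L, VEGFA, FAM162A, KDM3A, MXI1, P4HA1, ADM, DDIT4 and ERO1A). Between 0 and 9 did with 1 library left out, with 0 without the combination library of PANC-1, for example. DDIT4, an inhibitor of mTORC1, was 99.6, 71.1, 110 and 76.0 TPM in AsPC-1 against 645, 867, 690 and 913 TPM in PANC-1. VEGFA, the growth factor for blood vessels, was 25.7, 19.1, 26.9 and 20.4 TPM and 47.8, 63.4, 47.7 and 66.0 TPM. FAM162A, a hypoxia-induced mitochondrial protein, was 11.0, 10.0, 11.2 and 9.96 TPM and 21.2, 29.5, 21.4 and 29.7 TPM.

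**Figure D4:**
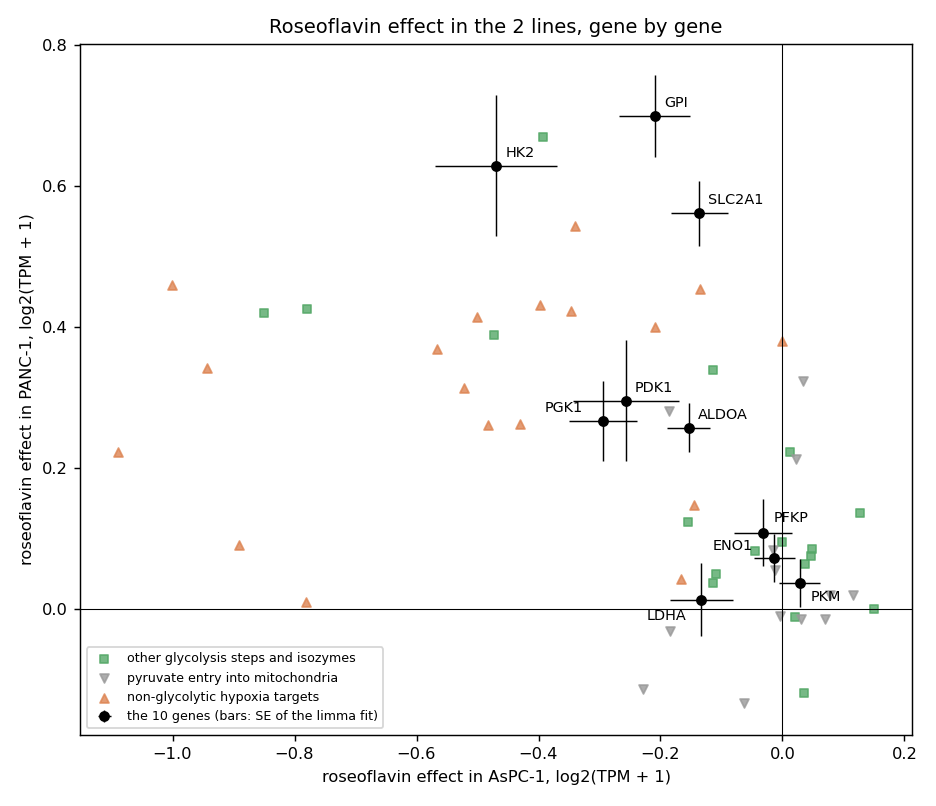
Fitted roseoflavin effect in AsPC-1 (horizontal axis) against that in PANC-1 (vertical axis), both in log2(TPM + 1), for the 10 genes (black, bars are the SE of the limma fit) and the tested genes of 3 lists. The 10 genes lie at or above 0 on the PANC-1 axis and, except PKM, left of 0 on the AsPC-1 axis, with a median of -0.15 there against -0.46 for the other hypoxia targets, which overlap them.

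After centring each gene on its mean within each line, the 10 genes could be set against their common profile over the 8 libraries, a description in which the points share the line's libraries. Against the mean of the other 9, ALDOA had the highest correlation (Pearson r = 0.980), followed by PDK1 at 0.950, GPI at 0.934, SLC2A1 at 0.927 and PGK1 at 0.912. HK2 stood at 0.854, ENO1 at 0.767, PFKP at 0.730, LDHA at 0.518 and PKM at 0.369. The mean profile was 0.11, -0.0027, 0.05 and -0.16 in AsPC-1 against -0.15, 0.14, -0.15 and 0.16 in PANC-1 with vehicle, roseoflavin, trametinib and the combination, so in AsPC-1 the combination library stood lowest. Among 8621 other named genes whose mean was 10 TPM or more, the 10 most like this profile included NOL3 (r = 0.965), MT-RNR1, YEATS2, ERRFI1, GAPDH (r = 0.959), INSIG2, UBE2H and SNORD49B (r = 0.951). Of these, only GAPDH was in the pathway lists, and MT-RNR1 is mitochondrially encoded.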

How the data were processed

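RNA of 8 spheroid samples, 1 per line and treatment, was made into libraries with a stranded kit that selects polyadenylated RNA, per the labels' protocols. The authors deposited 1 table of TPM per gene, per the file headers. The submitters' processing notes name hg38, STAR 2.7.3a and HTSeq 2.0.2, without saying how TPM was computed, and the annotation is not given in the sources used here. TPM sums to 1000000 per library, so depth and counting error are unknown. Blank rows (985926) were dropped.

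Values were analysed as log2(TPM + 1) for the 19122 genes that reached 1 TPM in 2 libraries or more. limma 3.58.1 in R 4.3.3 (trend in the prior variance, Benjamini-Hochberg threshold 0.05) was fitted with line, and roseoflavin and trametinib within each line (2 residual degrees of freedom), with additive terms over both lines (4), with their interaction (3), and for the level of the lines (3). With 1 library per group the error of the fits within lines comes from how far both compounds' effects fail to add. In the additive fits over both lines it also holds how far the lines' responses differ. In the fits of the interaction and of the level it holds only that difference between the lines' responses. The p-values measure only these spreads. The fit was run on simulated data with independent noise, as a check of the size of the estimates and not of the calls.

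Alternatives were quantile normalization, TPM rescaled without mitochondrially encoded genes, a pseudocount of 0.1, no filter, a mean of at least 10 TPM, RefSeq mRNAs with that mean (7907 genes), no trend, and leaving out each library. A common term for the other compound, and the RefSeq filter combined with that term, with each scaling or with each library left out, were chosen after seeing the data, as was counting matched differences on each scale. All 10 genes were named, and of each other list the 3 genes with the smallest p for the roseoflavin difference, those called, and listed partner isozymes. A few further genes (FBP1 and PDK4) were named after their values were seen. The genes and lists were chosen with earlier results of these data known. Gene positions are from GENCODE 29. Some genes with a profile like that of the 10 are not reported here.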

Additional observations from a re-analysis of the deposited data

Results flagged for a closer look

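In 7 genes every matched comparison of roseoflavin was lower in AsPC-1 and every one higher in PANC-1, a pattern held by 11.5% of all genes tested. Their difference in roseoflavin effect, PANC-1 minus AsPC-1 in log2(TPM + 1), was 0.70 for SLC2A1, 1.10 for HK2, 0.91 for GPI, 0.41 for ALDOA, 0.56 for PGK1, 0.087 for ENO1 and 0.55 for PDK1. The limma test of the difference itself passed for none of them over all genes and for SLC2A1, HK2, GPI, ALDOA and PGK1 among the RefSeq mRNAs. For ENO1 the AsPC-1 comparison of roseoflavin with vehicle had the opposite sign after rescaling without mitochondrial transcripts and after quantile normalization. Its PANC-1 comparison of the combination with trametinib also turned after quantile normalization, to -0.012.

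The same pattern for trametinib appeared in 3 genes, against 6.28% of all genes. The difference was 0.18 for GPI, 0.11 for ALDOA and 0.10 for ENO1, and limma's test of it passed for none.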

How the results depend on the processing

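With 1 library per group, calls depend on the genes tested. The number of the 10 genes called by limma was 0 in every fit of a compound over all genes. With RefSeq mRNAs of at least 10 TPM it was 2 for roseoflavin in AsPC-1, 3 in PANC-1, 5 for the difference and 1 for trametinib in AsPC-1. With a common term for the other compound as well it was 1, 3 and 5 for roseoflavin (0.797% of genes lower, 0.898% higher, and 99 of 7907 genes higher for the difference) and 0 for trametinib in AsPC-1. With that filter after rescaling or quantile normalization it was 4 in PANC-1 and 5 for the difference, and 0 in AsPC-1. Leaving out 1 library gave 0 to 4 in PANC-1 and 0 to 4 for the difference.

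The median roseoflavin effect in PANC-1 was 0.20 after quantile normalization, and 0.21 with the RefSeq filter added. The median difference was 0.38 after quantile normalization, 0.41 with a mean of at least 10 TPM, with the RefSeq filter and with the common term added to it, 0.35 with that filter after rescaling and 0.33 after quantile normalization. The median level difference was 0.64 after quantile normalization and 0.57 after rescaling. Without 1 library the medians ranged from -0.20 to -0.11 for roseoflavin in AsPC-1 (-0.089 with the RefSeq filter, without its trametinib or combination library), from 0.41 to 0.53 for the difference and from -0.26 to 0.14 for the interaction. At 1.5-fold, 1 gene was lower in AsPC-1 for combination against trametinib (3.03% of all genes) and 0 against vehicle (4.03%). In PANC-1, 1 was higher for roseoflavin against vehicle (2.75%), and 3 for the combination against trametinib (3.44%) and against vehicle (3.05%).

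Signs turned for small values. For roseoflavin these were PFKP in AsPC-1 (0.011 with quantile normalization), ENO1 in AsPC-1 (0.012 rescaled), PKM in PANC-1 (-0.0088 with quantile normalization), LDHA in PANC-1 (-0.089 and -0.023 with quantile normalization and rescaled), and the PKM difference (-0.041 and -0.052). For trametinib in PANC-1 they were ENO1 (-0.021 and -0.013) and PDK1 (-0.0080 and -0.0090). Without 1 library the roseoflavin ranges that crossed 0 were -0.089 to 0.025 for PFKP in AsPC-1, -0.016 to 0.043 for LDHA in PANC-1 and -0.0018 to 0.022 for the PKM difference. The trametinib ranges were -0.091 to 0.23 for HK2 and -0.14 to 0.035 for PGK1 in AsPC-1, and in PANC-1 -0.0032 to 0.064 for SLC2A1, -0.021 to 0.14 for HK2, -0.041 to 0.029 for PFKP and -0.036 to 0.048 for PDK1. The cause was not tested. Of the values for single genes 925 kept direction and side of the threshold, 29 turned sign, 20 gained a call (all with the RefSeq filter) and 9 lost one, all for the level of HK2, SLC2A1 or PFKP.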

Other observations

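Of 21 named pseudogenes of the 10 genes, 6 reached 1 TPM in some library. ENO1P1 was listed at 72.2 to 81.1 TPM in PANC-1 and at most 0.169 TPM in AsPC-1, and LDHAP4 at 16.8 to 19.3 TPM in PANC-1 and 2.73 to 3.11 TPM in AsPC-1. Both parent genes were also higher in PANC-1. The microRNA entry MIR6728, inside ENO1 on the same strand, was listed at 69.8 to 91.0 TPM in AsPC-1 and 377 to 399 TPM in PANC-1. Whether these values come from reads of the parent genes was not tested.

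BNIP3, a mitophagy receptor and hypoxia target, stood at 0 in each of the 4 AsPC-1 libraries, and at 161, 213, 167 and 216 TPM in PANC-1 with vehicle, roseoflavin, trametinib and the combination. CA9, the hypoxia-induced carbonic anhydrase, was 143, 100.4, 163 and 77.7 TPM in AsPC-1 and 3.13 to 3.68 TPM in PANC-1. NDRG1, another hypoxia target, was 104, 64.9, 122 and 48.2 TPM in AsPC-1 and 25.2, 32.7, 24.0 and 35.8 TPM in PANC-1.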
